A study of Mus musculus with 12 samples.

Results

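Expression of 10 genes of the unfolded protein response was followed across 12 libraries of mouse liver RNA, by counts of sequencing reads per gene. The genes were Hspa5, Hsp90b1, Sdf2l1, Dnajb9, Pdia4, Creld2, Herpud1, Xbp1, Atf4 and Ddit3, matched by symbol. They matched 11 of the 54838 gene rows of the deposited table, because Ddit3 stands on 2 rows. All 10 genes passed the filter on low counts, while the second Ddit3 row, with 1 count in every library, did not.

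The series concerns effects in diabetes of a red form of the alga Chlamydomonas reinhardtii that is rich in protoporphyrin IX. Its libraries carry the labels CTL, DM and DMH, with 4 libraries under each label. The labels do not spell out these names, do not say which libraries came from animals given the alga, and give no strain, age, sex, dose or duration. They name liver as the tissue of all 12 libraries, and they do not state whether the 4 libraries of a label are 4 animals. The p-values given here therefore measure the spread between libraries, and that spread may be technical.

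The unfolded protein response is the set of signals by which a cell adjusts the endoplasmic reticulum (ER) to its load of unfolded protein. The sensors IRE1, PERK and ATF6 in the ER membrane lead to the transcription factors XBP1, ATF4 and cleaved ATF6, which raise transcription of ER chaperones, of the machinery for degrading misfolded ER proteins, and of the factor CHOP. Hepatocytes secrete most plasma proteins and so hold a large ER, and in liver the pathway is also known for its links to lipid and glucose metabolism.

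Known binding sequences of these factors were searched for in the promoters, since the members share regulators. RefSeq start sites of the GRCm38.p6 build were matched for all 10 genes, and windows from 250 bases before to 50 bases after the start were searched on both strands. The ER stress response element (ERSE), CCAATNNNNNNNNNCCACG, which is bound by ATF6 with the factor NF-Y, was found in 39 of 32851 promoters (0.119%), among them those of Hspa5, Hsp90b1 and Creld2. The shorter ERSE-II, which is ATTGG and CCACG with any 1 base between them, was found in 12 promoters (0.0365%), including that of Herpud1. These 4 promoters are shown because they carry the elements; each runs 5′ to 3′ on the strand of the gene over the 250 bases before the start, with the fixed letters of ERSE or ERSE-II in capitals.

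Hspa5: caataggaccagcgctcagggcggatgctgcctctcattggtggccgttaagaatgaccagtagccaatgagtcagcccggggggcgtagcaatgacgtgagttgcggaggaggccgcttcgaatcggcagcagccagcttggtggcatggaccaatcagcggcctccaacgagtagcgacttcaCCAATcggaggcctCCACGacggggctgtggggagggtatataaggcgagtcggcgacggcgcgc
Hsp90b1: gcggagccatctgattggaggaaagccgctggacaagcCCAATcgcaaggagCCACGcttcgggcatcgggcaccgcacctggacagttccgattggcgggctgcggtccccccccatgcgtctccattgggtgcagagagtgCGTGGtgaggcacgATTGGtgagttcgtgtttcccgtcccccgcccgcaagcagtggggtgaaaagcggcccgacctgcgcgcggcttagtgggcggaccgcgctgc
Creld2: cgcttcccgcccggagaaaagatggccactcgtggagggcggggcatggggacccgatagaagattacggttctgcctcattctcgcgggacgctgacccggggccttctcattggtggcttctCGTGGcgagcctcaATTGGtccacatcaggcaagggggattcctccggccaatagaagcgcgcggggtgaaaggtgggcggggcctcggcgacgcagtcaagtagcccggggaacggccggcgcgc
Herpud1: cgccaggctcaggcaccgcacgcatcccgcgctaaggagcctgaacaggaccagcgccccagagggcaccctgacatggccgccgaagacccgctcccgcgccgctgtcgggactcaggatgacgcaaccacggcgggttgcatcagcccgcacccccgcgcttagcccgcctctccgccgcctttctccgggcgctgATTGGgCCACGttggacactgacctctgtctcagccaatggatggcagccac

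The windows lie at chr2:34771840-34772089 (plus strand, Hspa5), chr10:86705445-86705694 (minus strand, Hsp90b1), chr15:88819396-88819645 (plus strand, Creld2) and chr8:94386179-94386428 (plus strand, Herpud1). The Hspa5 element covers bases 65 to 47 before the start. Hsp90b1 has a pair of elements, which begin 212 and 107 bases before the start in opposite orientations. The Creld2 element begins 126 bases and the Herpud1 element 52 bases before the start. No member held TGACGTGG, the UPRE letters bound by XBP1 and ATF6, within these windows, against 0.676% of all promoters. TGATGNAA, letters bound by ATF4 with C/EBP factors, was found in 3.97% of all promoters and among the members in that of Herpud1, beginning 112 bases before the start. A match of letters is a description of the window and does not show that a factor binds there.

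Library totals were 13430122 to 17038017 counts. Mitochondrial genes took 7.88% to 23.5% of counts in CTL, 18.7% to 33.7% in DM and 22.5% to 37.6% in DMH. The text on extraction speaks of retinas where the tissue label says liver. The level of albumin (Alb) was 13490 to 37110 CPM (the count of a gene scaled to the library total) in the 12 libraries, and the photoreceptor genes Prph2, Crx and Rcvrn were at 0 in all of them. The photoreceptor gene Gnat1 reached at most 54.2 CPM.

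Of the 10 genes, 7 had at least 3 of the 4 DMH libraries below all 8 CTL and DM libraries. These were Hspa5, Hsp90b1, Sdf2l1, Dnajb9, Pdia4, Creld2 and Herpud1, the chaperones, their helpers and the degradation factor. Of all 14643 genes tested, 10.3% had this pattern. The remaining DMH library lay at or above the levels of some CTL or DM libraries for each of the 7, and edgeR called no member at an adjusted p under 0.05 in any comparison. With all libraries, DESeq2 called 3 members lower in DMH against DM, where it called 2.06% of genes lower. In DMH against CTL it called 1 lower, where it called 11.2% of genes lower. DESeq2 gave no adjusted p for Hspa5. In DMH against CTL limma called 1 member, where it called 1012 of the 14643 tested genes. Levels below are CPM scaled by edgeR's trimmed mean of M-values (TMM), and a library is named by its label and replicate number.

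Hspa5 encodes BiP, the abundant Hsp70 chaperone of the ER lumen, and lies at 2:34771970-34777547 on the plus strand of GRCm38. Its level was 79.5, 144, 147 and 146 CPM in CTL1 to CTL4, then 280, 267, 259 and 120 CPM in DM1 to DM4, and 30.1, 34.7, 43.5 and 183 CPM in DMH1 to DMH4. DM1, DM2 and DM3 stood above every other library, whereas DM4 fell among the controls. DMH1, DMH2 and DMH3 were the lowest of the 12, while DMH4 exceeded all 4 controls. The group means were 129 ± 33.1 CPM in CTL, 231 ± 74.5 CPM in DM and 72.8 ± 73.6 CPM in DMH (SD, n = 4).

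The other large chaperone, GRP94, is the Hsp90 protein of the ER and is encoded by Hsp90b1 (10:86690209-86705509, minus strand). Hsp90b1 stood at 735, 710, 610 and 621 CPM in the CTL libraries, at 570, 941, 462 and 545 CPM in DM, and at 216, 446, 378 and 646 CPM in DMH. DM1, DM3 and DM4 lay below all controls and DM2 above them, and 3 of the DMH libraries lay below both groups. Its means were 669 ± 63.1, 629 ± 213 and 421 ± 178 CPM (SD, n = 4). Per length, Hsp90b1 had the highest level of the members, at 107 ± 33.8 FPKM (fragments per kilobase of gene length, scaled to the library total) over the 12 libraries.

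Sdf2l1 (16:17130138-17132383, minus strand) encodes a small ER protein that works with BiP and its J-domain partners. It was low, with 11.6, 19.4, 20.2 and 13.5 CPM in CTL, 20.2, 35.3, 11.8 and 14.4 CPM in DM, and 2.80, 8.14, 7.995 and 22.5 CPM in DMH. DMH1 held the lowest value, while DMH4 was above every library but DM2. Dnajb9 (12:44205559-44210326, minus strand) encodes ERdj4, a J-domain co-chaperone of BiP. Its values were 47.1, 55.2, 29.4 and 30.5 CPM in CTL, 51.7, 66.3, 32.5 and 38.1 CPM in DM, and 8.23, 19.9, 15.7 and 34.9 CPM in DMH. Here too the first 3 DMH libraries were below all others and DMH4 lay within the control range.

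Pdia4 (6:47796141-47813430, minus strand) encodes ERp72, a disulfide isomerase that forms and shuffles disulfide bonds in folding proteins. It was even across the controls, at 118, 128, 108 and 106 CPM, and reached 152, 211, 104 and 147 CPM in DM. The DMH values of 53.7, 88.9, 62.1 and 113 CPM were below the controls except in DMH4. Creld2 (15:88819646-88826683, plus strand) encodes an ER protein known to be induced by ER stress. Creld2 had 38.9, 56.9, 61.4 and 68.1 CPM in CTL, 51.5, 132, 27.9 and 53.8 CPM in DM, and 14.1, 21.3, 11.8 and 50.3 CPM in DMH. DM2 was the highest library by a wide margin, and DM3 was the lowest outside DMH.

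Herpud1 (8:94386438-94395377, plus strand) encodes an ER membrane protein that helps to organise ER-associated degradation. Its level was 324, 211, 323 and 327 CPM in CTL, 505, 575, 164 and 133 CPM in DM, and 26.5, 43.6, 218 and 77.2 CPM in DMH. Herpud1 differed from the chaperones in which library stood apart: DMH3, and not DMH4, reached the level of the other groups. DM was also split, with DM1 and DM2 above all controls and DM3 and DM4 below them. Its means were 296 ± 57.0 CPM in CTL, 344 ± 228 CPM in DM and 91.3 ± 86.9 CPM in DMH (SD, n = 4).

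Among the transcription factors, Xbp1 (11:5520659-5525893, plus strand) encodes the factor whose messenger RNA is spliced by IRE1; gene counts do not separate the spliced from the unspliced form. Xbp1 stood at 194, 111, 89.3 and 75.9 CPM in CTL, at 108, 110, 91.7 and 89.6 CPM in DM, and at 105, 113, 114 and 118 CPM in DMH. CTL1 was the highest library, and all DM and DMH libraries lay inside the control range. Atf4 (15:80255184-80257541, plus strand) encodes the factor whose translation rises when PERK phosphorylates the initiation factor eIF2α. Its values were 122, 146, 115 and 135 CPM in CTL, 112, 129, 141 and 125 CPM in DM, and 163, 152, 107 and 119 CPM in DMH. DMH held both the highest and the lowest Atf4 value of the 12 libraries.

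Ddit3 (10:127290774-127296288, plus strand) encodes CHOP, a factor known for promoting cell death under prolonged ER stress. It stood at 13.8, 18.8, 25.8 and 27.3 CPM in CTL, at 19.6, 31.7, 19.3 and 13.9 CPM in DM, and at 14.98, 11.2, 7.995 and 15.05 CPM in DMH. DMH2 and DMH3 were below all other groups' libraries, whereas DMH1 and DMH4 exceeded CTL1 and DM4. Ddit3 shares 68 exonic bases with Mars, a gene on the opposite strand with a mean of 37.3 CPM, and use of strand in counting is not given in the sources used here, so reads there cannot be assigned with certainty.

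**Figure D1:**
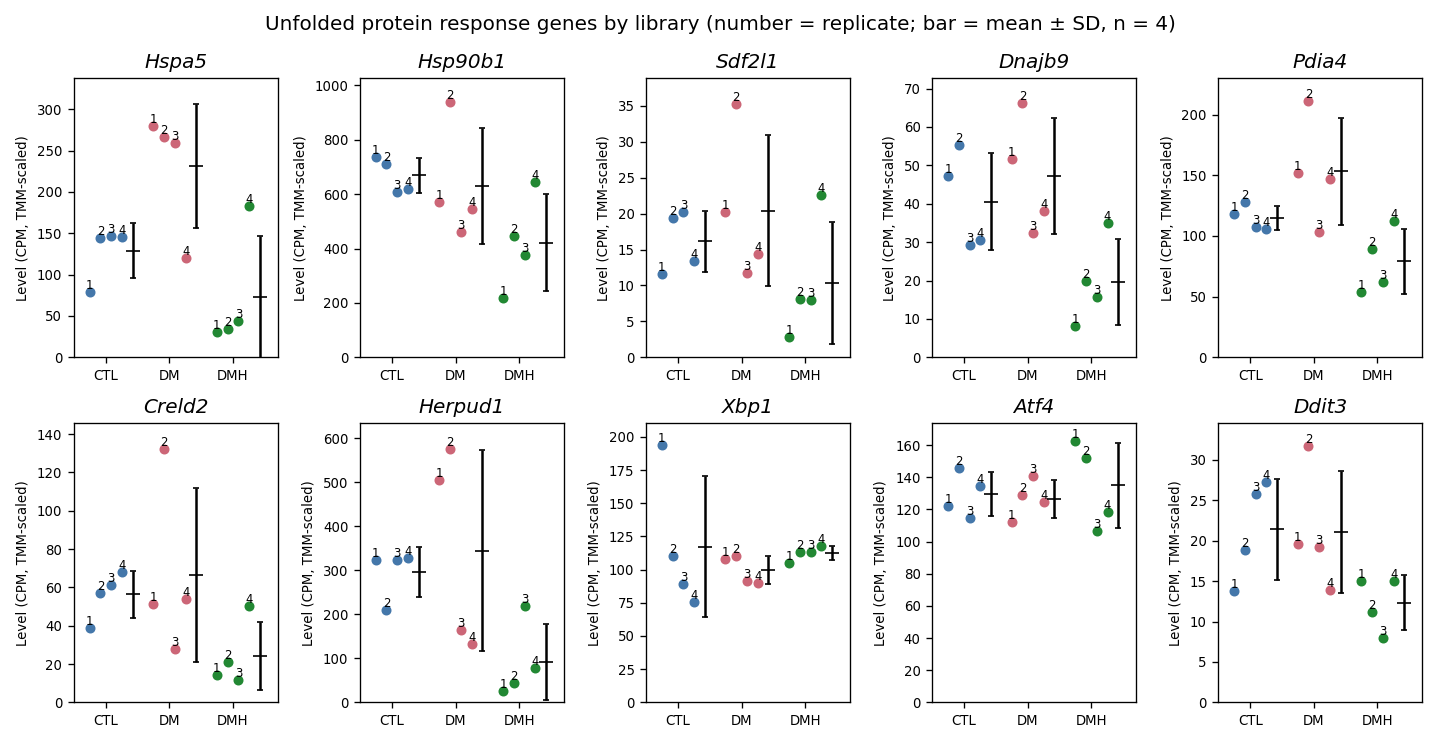
Level of each of the 10 genes in CPM with TMM scaling (vertical axes, each from 0) in the CTL, DM and DMH libraries; a point is a library with its replicate number, and the bar beside it is the mean ± SD of 4 libraries, drawn down to 0 where the SD exceeds the mean. DMH1, DMH2 and DMH3 lie below all CTL and DM points for Hspa5, Hsp90b1, Sdf2l1, Dnajb9, Pdia4 and Creld2, while Xbp1 and Atf4 overlap across the labels.

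The order of the levels per length was Hsp90b1, Herpud1, Pdia4, Creld2, Atf4, Xbp1, Hspa5, Sdf2l1, Dnajb9 and Ddit3. Mean FPKM ran from 107 for Hsp90b1 to 7.91 ± 2.85 for Ddit3 (SD, n = 12). The gap to the next gene exceeded the SD of both neighbours only between Hsp90b1 and Herpud1 (48.4 ± 30.7 FPKM) and between Atf4 (32.1 ± 5.82 FPKM) and Xbp1 (24.6 ± 7.26 FPKM). The length behind the deposited FPKM was fixed for each gene and was longer than the merged exons of 8 members, by up to 2.13 times for Herpud1. Scaled to merged exons instead, Hsp90b1 and Herpud1 remained first and second, while Atf4 moved above Pdia4 and Creld2, Hspa5 passed Xbp1, and Dnajb9 passed Sdf2l1.

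Set against their own means over the 12 libraries, the 10 genes were on average 0.17 to 0.34 above on the log2 scale in the CTL libraries. In DM the average deviation was 0.51, 0.98, 0.021 and 0.033 from DM1 to DM4, so DM1 and DM2 carried most of the higher values. In DMH it was -1.25, -0.68, -0.715 and 0.087. DM2 was the highest library for 7 of the 10 genes with TMM scaling. On the deposited FPKM scale, which lacks that scaling, DM2 was highest for 2 and CTL2 for 4. The DMH side did not turn on this choice: DMH1 was lowest for 6 genes with TMM and for 7 in FPKM, and 8 members had at least 3 DMH libraries below all CTL and DM libraries in FPKM, against 5.63% of all tested genes.

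**Figure D2:**
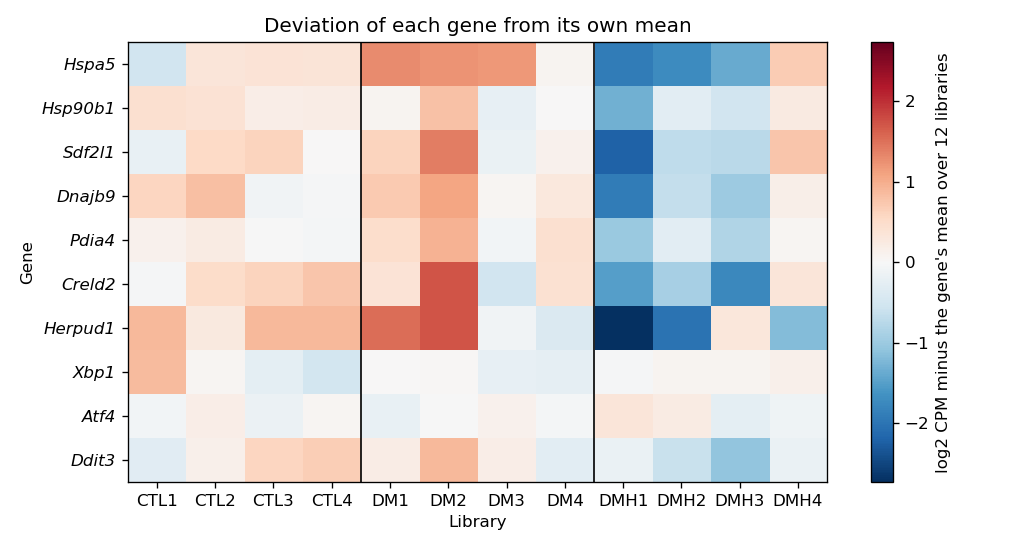
Log2 CPM of each gene minus that gene's mean over the 12 libraries (colour scale, red above and blue below the mean), with genes in rows and libraries in columns. The columns DMH1, DMH2 and DMH3 are blue for the chaperone rows, DMH4 is pale, and the rows of Xbp1 and Atf4 show little colour outside CTL1.

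The comparison of DM with CTL gave no call among the 10 genes, where 0.219% of all 14643 tested genes were called at an adjusted p under 0.05 by edgeR. None had an unadjusted p under 0.05, where 8.43% of tested genes did with a higher and 10.4% with a lower mean. DESeq2 called none of the members, where it called 3.04% of genes higher and 3.33% lower. Among the members, 6 had higher and 4 lower fitted means in DM, with a median log2 fold change of 0.22 against -0.027 over all tested genes. Without DM2 that median was -0.097. The largest estimate was that of Hspa5, a log2 fold change of 0.84 ± 0.54 (SE; 95% interval -0.33 to 2.02, adjusted p = 0.425), followed by Pdia4 at 0.42 ± 0.25 (adjusted p = 0.398). Sdf2l1, Creld2, Herpud1 and Dnajb9 had log2 fold changes of 0.34, 0.24, 0.22 and 0.22. The transcription factors lay near zero or below, at -0.021 for Ddit3, -0.033 for Atf4 (95% interval -0.39 to 0.32) and -0.23 for Xbp1 (95% interval -0.77 to 0.30), and Hsp90b1 was at -0.088. All 10 genes overlapped between DM and CTL, where 7.32% of tested genes lay wholly higher and 7.72% wholly lower in DM.

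In DMH against DM, 8 of the 10 genes had lower fitted means, with a median log2 fold change of -0.96 against 0.034 over all tested genes. No member was called by edgeR, which called 0.0341% of all tested genes, and the smallest adjusted p was 0.115. With a lower mean, 6 members had an unadjusted p under 0.05, where 10.3% of all tested genes did. These were Herpud1, Hspa5, Creld2, Dnajb9, Pdia4 and Ddit3. Of these, 4 were at least 2-fold lower, where 2.56% of tested genes were.

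Herpud1 showed the largest estimate of this comparison, 3.77-fold lower in DMH than in DM (log2 fold change -1.92 ± 0.65 SE, adjusted p = 0.151), and Hspa5 followed at 3.18-fold lower (-1.67 ± 0.55, adjusted p = 0.146). Creld2 was 2.72-fold lower (-1.44 ± 0.52, adjusted p = 0.162) and Dnajb9 2.39-fold lower (-1.26 ± 0.39, adjusted p = 0.137). Pdia4 had the smallest p of the members, at 1.93-fold lower (-0.95 ± 0.25; 95% interval -1.50 to -0.40, adjusted p = 0.115). Ddit3 was 1.71-fold lower (adjusted p = 0.173), Hsp90b1 1.49-fold lower (adjusted p = 0.304), and Sdf2l1 had a log2 fold change of -0.97 ± 0.53 (adjusted p = 0.315). Xbp1 and Atf4 were at 0.17 (95% interval -0.36 to 0.70) and 0.092 (95% interval -0.27 to 0.45).

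DESeq2 called 3 members lower in DMH than in DM, and none higher, where it called 2.06% of genes lower and 2.86% higher. These were Pdia4 (adjusted p = 0.0261), Herpud1 (adjusted p = 0.0408) and Dnajb9 (adjusted p = 0.0469), and it gave no adjusted p for Hspa5. Without DMH4, edgeR called Hspa5 at a log2 fold change of -2.65 (adjusted p = 0.0261), and the members' median moved to -1.40. With a library left out, edgeR called 1 to 155 of all genes in this comparison, and the count for the fit without DMH4 is not given here. DMH4 was the highest DMH library for Hspa5, so leaving it out by itself lowers the DMH mean. Without DM2 the median was -0.64, with Creld2 at -0.84, Sdf2l1 at -0.55 and Hsp90b1 at -0.29. Without DMH4, Creld2 was at -2.05 and Sdf2l1 at -1.66, and without DMH3 Herpud1 was at -2.79. Hspa5 and not Herpud1 had the largest estimate without DMH4 (-2.65 against -1.80) and without DM2 (-1.57 against -1.51). With every library kept, all 10 genes overlapped between DMH and DM, where 5.67% of tested genes lay wholly higher and 7.36% wholly lower in DMH.

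DMH against CTL gave 9 lower and 1 higher fitted mean, with a median log2 fold change of -0.73 against -0.01 over all tested genes. edgeR called no member, although it called 15.4% of all tested genes in this comparison. With a lower mean, 5 members had an unadjusted p under 0.05, where 17.0% of all tested genes did: Herpud1, Creld2, Dnajb9, Ddit3 and Hsp90b1. At least 2-fold lower were 3 members, where 7.44% of tested genes were. All 10 genes overlapped between DMH and CTL, where 8.64% of tested genes lay wholly higher and 10.9% wholly lower in DMH. Herpud1 was 3.24-fold lower (log2 fold change -1.70 ± 0.65 SE, adjusted p = 0.0923) and Dnajb9 2.06-fold lower (-1.04 ± 0.39, adjusted p = 0.0862). Creld2 stood at -1.21 ± 0.52 (adjusted p = 0.127) and Ddit3 at -0.80 ± 0.30 (adjusted p = 0.0837). Hspa5, Hsp90b1, Sdf2l1 and Pdia4 had log2 fold changes of -0.83, -0.67, -0.64 and -0.53, with adjusted p of 0.313, 0.15, 0.432 and 0.162. Xbp1 was at -0.062 (95% interval -0.59 to 0.47) and Atf4 at 0.059 (95% interval -0.30 to 0.42).

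The single calls of this comparison depended on the libraries and the tool. Without DMH4, edgeR called Hspa5 (log2 fold change -1.80, adjusted p = 0.00614), Dnajb9 (-1.43, adjusted p = 0.0207) and Creld2 (-1.80, adjusted p = 0.024). Without DMH3, it called Herpud1 (-2.56, adjusted p = 0.0348), which DESeq2 also called with all libraries (adjusted p = 0.0294) where DESeq2 called 11.2% of genes lower and 11.8% higher. Sdf2l1 was at -1.31 without DMH4 (adjusted p = 0.0626). With a library left out, edgeR called 623 to 2967 of all genes in this comparison. That range spans all such fits, and the count for the fit without DMH4 or DMH3 is not given here. DMH4 was the highest DMH library for Hspa5, Dnajb9 and Creld2, and DMH3 for Herpud1. Leaving out such a library by itself lowers the DMH mean of the gene. The members' median was -1.11 without DMH4 and -0.48 without DMH1. DMH is common to both of the last comparisons, so their values are not independent.

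**Figure D3:**
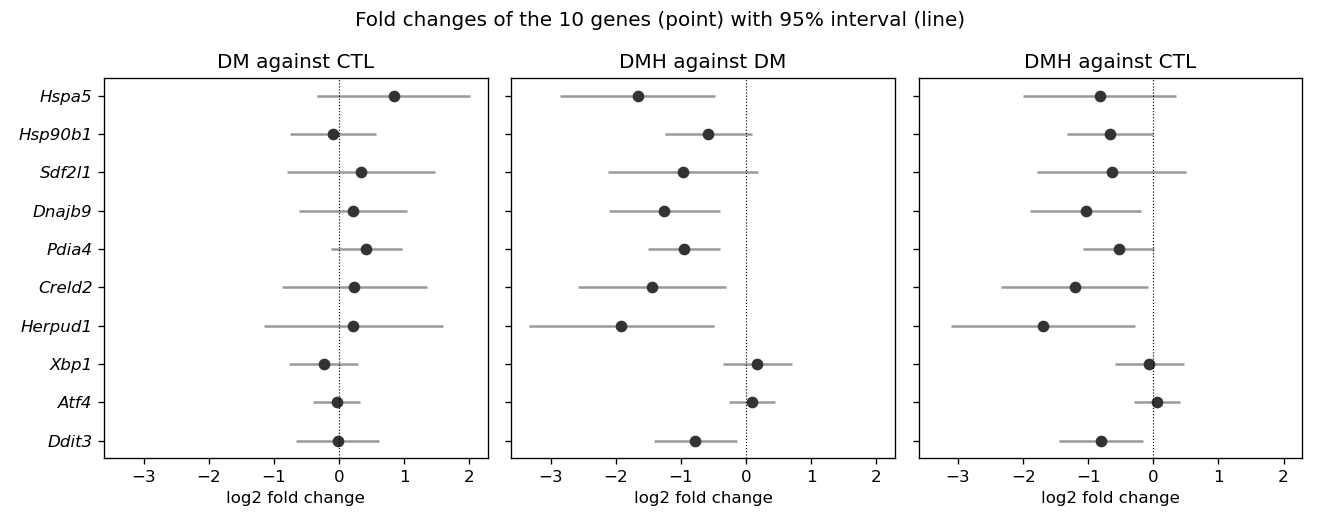
Log2 fold change of each of the 10 genes (horizontal axis; point, edgeR estimate; line, 95% interval) with a panel for each of the 3 comparisons. In DMH against DM the 95% intervals of Hspa5, Dnajb9, Pdia4, Creld2, Herpud1 and Ddit3 lie wholly below 0, and those of Xbp1 and Atf4 are centred near 0 in all 3 panels; no point passed an adjusted p of 0.05 by edgeR.

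Library properties differed too, both between the labels and within them. DMH4 had the lowest mitochondrial share of the DMH libraries, at 22.5%, against 29.1% to 37.6% in DMH1 to DMH3. The summed level of 8 hepatocyte markers was 34720 to 36110 CPM in DMH1, DMH2 and DMH3, and 52310 in DMH4, beside 41880 to 55690 in DM and 60590 to 72820 in CTL. Sums of markers use plain library totals, mitochondrial counts included, and not the TMM scaling of the member levels. A higher mitochondrial share by itself lowers such a sum. In the TMM-scaled fit, 4 of these 8 markers had a lower and 4 a higher mean in DM than in CTL (median log2 fold change -0.04), 6 of 8 a lower mean in DMH than in DM, and 8 of 8 a lower mean in DMH than in CTL. DM2, the library with the highest average of the 10 genes, had a mitochondrial share of 33.7%, the second highest of the 12, and the lowest hepatocyte sum in DM. When the mitochondrial percentage was added to the model, the members' median log2 fold change was -0.97 in DMH against DM, -0.52 in DMH against CTL and 0.047 in DM against CTL. In these bulk samples, fewer cells of a type and less RNA per cell cannot be told apart.

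Marker RNA of other cell types was also summed by label. edgeR called none of the Kupffer cell or neutrophil markers in DM against CTL or in DMH against DM. It called 1 of 10 plasma cell markers lower in DM against CTL, where it called 10 of the 14643 tested genes lower. In DMH against CTL it called 14 of 14 acute phase genes, 5 of 10 plasma cell and 1 of 12 Kupffer cell markers lower. It also called 1 of 8 hepatocyte and 0 neutrophil markers lower there, where 8.15% of all tested genes were called lower. In DM against CTL, 12 of 12 Kupffer cell and 4 of 4 tested neutrophil markers were lower at an unadjusted p under 0.05, and DESeq2 called all of them. Of all tested genes, 10.4% were lower at that p, and DESeq2 called 3.33% lower. In DMH against DM, 5 Kupffer cell markers were higher at that p and DESeq2 called 3, with 0 neutrophil markers by either. Of all tested genes, 10.4% were higher at that p there, and DESeq2 called 2.86% higher. The 12 Kupffer cell markers summed to 424 to 965 CPM in CTL, 81.6 to 223 in DM and 140 to 504 in DMH, with 12 of 12 at a lower mean in DM than in CTL and 12 of 12 at a higher mean in DMH than in DM. Markers of plasma cells, whose ER is large, summed to 384 to 709 CPM in CTL, 85.1 to 209 in DM and 95.7 to 141 in DMH; 9 of 10 tested were lower in DM than in CTL, and 6 of 10 higher in DMH than in DM. This list shares Derl3 with the degradation genes described below, and hepatocytes also express its Sdc1. The 14 acute phase genes had a lower mean in DM than in CTL in 14 of 14 cases. Their sum was 168200 CPM in CTL1 and 16490 to 33260 in the other CTL libraries. It was 7477 to 13040 in DM and 7236 to 12900 in DMH. Neutrophil markers summed to 334 CPM in CTL1 and 7.92 to 29.7 in the other CTL libraries. They summed to 2.05 to 6.03 in DM and 0.90 to 14.6 in DMH. The part of these markers and of the hepatocyte sum in the values of the 10 genes was not tested.

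Of 46 other genes of the pathway, all were tested, in 4 groups by role. In DMH against DM, 34 of the 46 had lower fitted means (median log2 fold change -0.42), and in DMH against CTL 36 did (median -0.36), while DM against CTL gave 20 lower and 26 higher (median 0.073). edgeR called none in the comparisons with DM. At an unadjusted p under 0.05, 6 were higher and 1 lower in DM against CTL, where 8.43% and 10.4% of tested genes were, and 1 was higher and 17 lower in DMH against DM, where 10.4% and 10.3% were. In DMH against CTL it called 1 higher and 7 lower, where 7.25% and 8.15% of all tested genes were called.

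The 16 ER folding genes had the lowest medians of the 4 groups in both comparisons of DMH. Of the 16, 15 had a lower mean in DMH than in DM (median log2 fold change -0.62) and 16 of 16 in DMH than in CTL (median -0.65). In DMH against CTL, 5 of them fell. Canx, the lectin chaperone calnexin, had 179, 164, 95 and 84.9 CPM in CTL and 33.8, 64.9, 56.7 and 79.3 CPM in DMH, without overlap, and a log2 fold change of -1.16 ± 0.29 SE (adjusted p = 0.0235). P4hb, the disulfide isomerase PDI, fell from 739 to 436 CPM on average (-0.76 ± 0.21, adjusted p = 0.0309). Sec61a1, the channel subunit through which proteins enter the ER, was at -0.62 ± 0.18 (adjusted p = 0.0362), and the BiP co-chaperones Dnajc3 and Dnajb11 were at -0.82 ± 0.25 (adjusted p = 0.042) and -0.80 ± 0.24 (adjusted p = 0.0423). Calr, calreticulin, did not overlap between the labels but missed the threshold, at -0.74 ± 0.24 (adjusted p = 0.0513).

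The remaining named folding genes were not called in any comparison. In DMH against DM, Hyou1, an ER Hsp110 chaperone, was at -1.40 ± 0.51, after 1.24 ± 0.51 in DM against CTL, where DM2 had 46.7 CPM and the other 3 DM libraries 10.3 to 24.7 CPM. Manf, a secreted ER stress protein, was at -1.05 in DMH against DM and the isomerases Pdia6 and Pdia3 at -0.95 and -0.71. Against CTL, Hyou1 was at -0.16, Manf at -0.93, Pdia6 at -0.70 and Pdia3 at -0.60 in DMH.

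Of 13 genes of ER-associated degradation, the pathway in which Herpud1 acts, 10 had a lower mean in DMH than in DM (median log2 fold change -0.43) and 11 in DMH than in CTL (median -0.39). Vcp, the ATPase that extracts proteins from the ER membrane, fell in DMH against CTL (-0.67 ± 0.20, adjusted p = 0.039), although 45.0% of its 25-base words also occur in Vcp-rs, so its count is uncertain. Derl1 was at -1.08 (adjusted p = 0.0987) and Edem1 at -0.35 (adjusted p = 0.628) in DMH against CTL, Syvn1, the ubiquitin ligase HRD1, at -0.017 (adjusted p = 0.979), and Derl3 at 2.10 ± 1.09 (adjusted p = 0.203). Sel1l, the adaptor of HRD1, ranged from 3.33 to 123 CPM within CTL alone, and its log2 fold change of -0.998 in DMH against CTL had an SE of 1.14.

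None of the 7 genes for sensors and their proteases was called. Their median was -0.048 in DMH against DM and 0.34 in DMH against CTL, where Ern1 (IRE1) was at 0.68 ± 0.26 (adjusted p = 0.0886), Eif2ak3 (PERK) at 0.35, Atf6 at -0.52 and Creb3l3, a liver factor related to ATF6, at -0.38. In DM against CTL, Ern1 was at 0.62 (adjusted p = 0.218) and Eif2ak3 at 0.75 (adjusted p = 0.176), with all 4 DM libraries of Eif2ak3 above all controls. That pattern in the higher direction was seen in 7.32% of all tested genes.

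Of the 10 ATF4 and CHOP targets, Trib3 rose and Cebpb fell in DMH against CTL. Trib3, a pseudokinase known as a target of ATF4 and CHOP, stood at 4.02, 7.41, 8.34 and 8.20 CPM in CTL, at 10.3, 13.4, 14.5 and 12.2 CPM in DM, and at 9.08, 18.5, 16.7 and 14.7 CPM in DMH. Every DM and DMH library was above every control, a pattern that 7.32% of tested genes had in DM and 8.64% in DMH, with log2 fold changes of 0.85 ± 0.27 in DM (adjusted p = 0.125) and 1.07 ± 0.27 in DMH (adjusted p = 0.0231). Cebpb, a transcription factor that pairs with CHOP, was at -0.93 ± 0.27 (adjusted p = 0.0394) and shares 312 exonic bases with Tmem189 on the opposite strand. Its level was 206.6, 125.6, 173 and 214.5 CPM in CTL and 67.5, 65.1, 86.8 and 158.8 CPM in DMH, so DMH4 exceeded CTL2. Asns, asparagine synthetase, was at -1.02 in DMH against CTL, Chac1 at 0.41, Sesn2 at 0.49 and Ppp1r15a, the eIF2α phosphatase subunit GADD34, at -0.073. In DM against CTL, 3 of the 10 targets had a lower and 7 a higher mean, and edgeR called 0. The largest estimates there were Asns at -1.905 ± 0.73 (adjusted p = 0.191) and Vldlr at 1.29 ± 0.35 (adjusted p = 0.106).

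These 8 calls of DMH against CTL depended on the libraries kept, including those of DM, which are not compared here. With a library left out, 623 to 2967 of all genes were called in this comparison. None of the 46 genes was called without CTL2 or without DMH3. Without CTL1, CTL3, CTL4, DM1, DM2, DM3, DM4, DMH1 or DMH2 the number was 2, 4, 6, 2, 3, 3, 3, 1 and 2, and without DMH4 it was 12. Trib3 stayed called in 14 and Canx in 13 of the 20 alternatives, and the other 6 in 5 to 8, and no fold change of the 8 changed sign. With a library left out, Canx ranged from -1.32 to -0.93, P4hb from -0.82 to -0.57 and Trib3 from 0.92 to 1.29. With that percentage of mitochondrial counts in the model none was called, and no gene of the whole table was; Canx was then at -0.385, P4hb at -0.42, Dnajc3 at -0.41, Vcp at -0.34, Sec61a1 at -0.335, Dnajb11 at -0.73, Cebpb at -0.72 and Trib3 at 0.94.

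**Figure D4:**
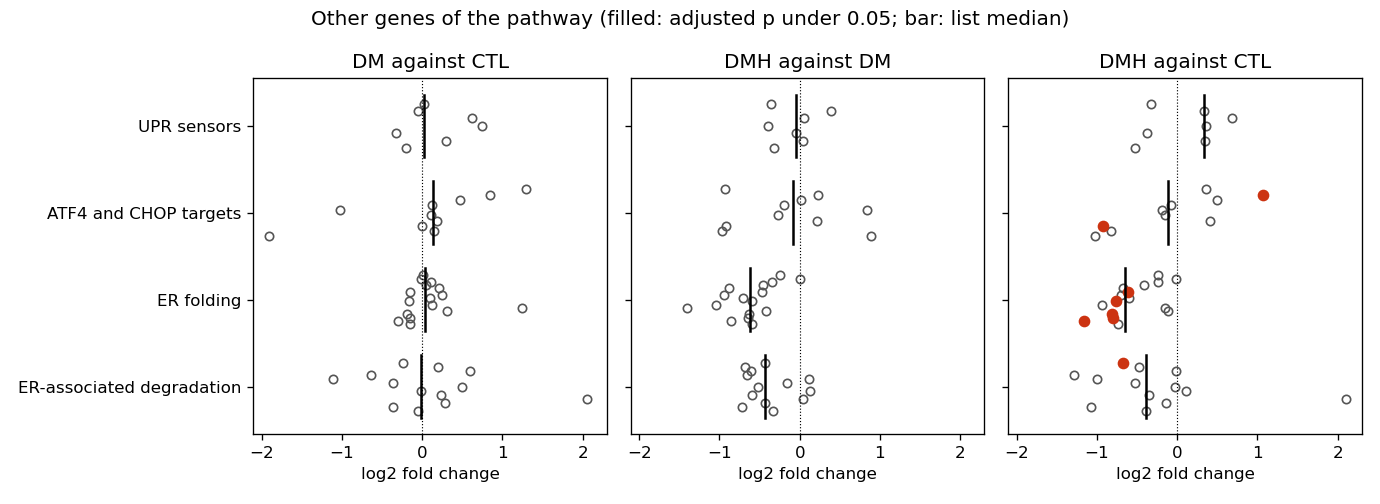
Log2 fold changes (horizontal axis) of 46 other genes of the pathway in 4 groups, in the 3 comparisons; a circle is a gene, filled where the adjusted p was under 0.05, and the bar is the group's median. The 16 ER folding genes lie below 0 in DMH against CTL, with 5 filled, whereas the sensors are spread on both sides.

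The log2 CPM of each of the 10 genes was scaled to a common mean and SD over the 12 libraries. The scaled values were then averaged by library. Among tested genes outside these lists, those whose log2 CPM was most like that mean were Atp2a2 (Pearson r = 0.951), Cwc15 (0.939), Ythdf2 (0.935), Capza2 (0.93) and Cfhr2 (0.929). Atp2a2 encodes SERCA2, the pump that fills the ER with calcium. The points of these correlations are the same 12 libraries and share their scaling. The members themselves were between 0.725 and 0.955 to that mean, of which each is part, except Xbp1 at 0.051 and Atf4 at -0.246.

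ERSE letters were also found in 7 of the 39 other pathway genes with a promoter, namely Calr, Canx, Derl3, Dnajc3, Ero1b, Pdia6 and Syvn1, and ERSE-II in Dnajb11. The ATF4 letters were found in 7 of the 39, among them Trib3, Asns and Chac1.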

How the data were processed

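The 12 libraries of mouse liver RNA, 4 each under CTL, DM and DMH, were grouped by their titles. Per the labels' design text, reads were checked with FastQC 0.11.8, trimmed with Trimmomatic 0.36 and aligned to GRCm38 with HISAT2 2.1.0, and StringTie counted reads per gene. The deposited table holds raw counts, which were tested here, and FPKM. The authors' FPKM equal the count over a fixed length and the plain library total, within a tolerance of 0.001, for all 11657 genes with enough counts, so they carry no TMM scaling.

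Genes passing filterByExpr (minimum count 10, minimum total 15; 14643 genes) were fitted in edgeR 4.0.16 (R 4.3.3) with TMM factors and the robust quasi-likelihood test, all 12 libraries in a single model with 9 residual degrees of freedom. P-values were adjusted by Benjamini-Hochberg over all tested genes, and called means an adjusted p under 0.05. CPM are TMM-scaled, except sums of markers and their single genes, which use plain totals. Alternatives used DESeq2 1.42.0, limma 3.58.1 on log2(FPKM + 1), other scaling and filters, only the groups compared, a replicate block, the mitochondrial percentage, and each library left out.

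The members and lists were chosen with earlier results of these data known. All members were named. Other pathway genes were named from a set list or where called, and the most alike by the 5 highest Pearson r. Derl2, Os9, Selenos and Vldlr, where given, were added because DESeq2 called them. Replicate numbers were not treated as pairs. Loci come from the deposited table and promoters from RefSeq.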

Additional observations from a re-analysis of the deposited data

Results flagged for a closer look

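Of 30 groups of 4 libraries, 4 held a library far from the others, by Dixon's ratio of the gap to the nearest library over the whole range, with 0.829 as the critical value. For independent groups of normally distributed values, chance alone gives about 1 in 20. The groups here share libraries and their genes correlate, so their number cannot be set against that rate. In 3 of the 4 groups with such a library the gene was Hspa5. CTL1 was the lowest control, at 79.5 CPM against 144 to 147 CPM in the others (ratio 0.956). DM4 was the lowest DM library, at 120 CPM against 259 to 280 CPM (ratio 0.871). DMH4 was the highest DMH library, at 183 CPM against 30.1 to 43.5 CPM (ratio 0.912). For Herpud1, CTL2 was the lowest control, at 211 CPM against 323 to 327 CPM (ratio 0.966).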

How the results depend on the processing

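Over 20 alternatives, 12 of which left out a library, 597 values of the members' 30 fold changes were obtained: 561 kept direction and side of the threshold, 10 passed it and 26 turned sign. The 8 members other than Xbp1 and Atf4 never turned sign in DMH against DM or DMH against CTL. The causes of the changes below were not tested.

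Members called in DMH against DM were 3 with DESeq2 and 0 to 1 with a library left out, and in DMH against CTL 1 with DESeq2, 1 with limma (Herpud1) and 0 to 3. Other pathway genes called were 2 with DESeq2 in DM against CTL (Trib3 and Vldlr; 0 to 0 with a library left out) and 2 in DMH against DM (Cebpb and Derl2; 0 to 1). In DMH against CTL they were 8, and 5 without a filter, 2 with the replicate block, 0 with the mitochondrial covariate, 3 with limma, 0 with only the 2 groups and 0 to 12 with a library left out; DESeq2 called 11, with Calr, Os9 and Selenos added. All genes called in DM against CTL were 32, and 65 without a filter, 1 with the block, 3 with the covariate, 929 with DESeq2, 80 with limma, 367 with only the 2 groups and 7 to 248 with a library left out. In DMH against DM they were 5, and 14 with a stricter filter, 1 with the block, 2 with the covariate, 718 with DESeq2 and 1 to 155. In DMH against CTL they were 2255, and 1001 with the block, 0 with the covariate, 1012 with limma, 629 with only the 2 groups and 623 to 2967. The members' median ran from -0.097 to 0.42, from -1.40 to -0.64 and from -1.11 to -0.48 in the 3 comparisons with a library left out, and was -0.13 with limma in DM against CTL.

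Sign turned in DM against CTL with the covariate for Hsp90b1 (0.019), Xbp1 (0.076) and Creld2 (-0.023), and with limma for Herpud1 (-0.18) and Creld2 (-0.098). In DMH against CTL it turned for Xbp1 with the block (0.02) and the covariate (0.40), and for Atf4 with the covariate (-0.065) and limma (-0.11). With a library left out, DM against CTL ranged from -0.39 to 0.13 for Xbp1, -0.076 to 0.041 for Atf4, -0.27 to 0.14 for Ddit3, -0.14 to 0.49 for Herpud1, -0.053 to 0.54 for Sdf2l1, -0.33 to 0.51 for Creld2 and -0.34 to 0.046 for Hsp90b1, and DMH against CTL from -0.22 to 0.32 for Xbp1 and -0.004 to 0.19 for Atf4. Same-numbered libraries correlated at -0.129 to 0.112 over 12 pairs, 2 of 12 best with their own number. These values showed no sign of pairing by number, and a batch shared by number was not tested.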
